A study of Mus musculus with 18 samples.

Results

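The 39 genes described here encode the machinery of intraflagellar transport and of the BBSome, and they were taken by name from the 38561 genes counted in each library. They comprise 6 genes of the IFT-A complex (*Ift43*, *Ift122*, *Ift140*, *Ttc21b*, *Wdr19* and *Wdr35*), 10 of the IFT-B core (*Ift22*, *Ift27*, *Ift46*, *Ift52*, *Ift74*, *Ift81*, *Ift88*, *Hspb11*, *Ttc26* and *Ttc30b*) and 6 of the peripheral part of IFT-B (*Ift20*, *Ift57*, *Ift80*, *Ift172*, *Cluap1* and *Traf3ip1*). A further 6 encode subunits of the BBSome (*Bbs1*, *Bbs2*, *Bbs5*, *Bbs7*, *Bbs9* and *Ttc8*), 3 encode the chaperonin-like proteins that help to assemble it (*Bbs10*, *Bbs12* and *Mkks*), and *Arl6* encodes the small GTPase that brings it to membranes. Kinesin-2, the motor toward the tip of the cilium, is represented by 3 genes (*Kif3a*, *Kif3b* and *Kifap3*) and dynein-2, the motor back to the base, by 2 (*Dync2h1* and *Dync2li1*). The remaining 2 are *Tulp3*, an adaptor that carries receptors into the cilium with IFT-A, and *Inpp5e*, a phosphoinositide phosphatase of the ciliary membrane. All 39 passed the filter on low counts and were tested.

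Intraflagellar transport (IFT) is the movement of protein trains along the microtubules of the cilium. IFT-B trains with kinesin-2 run outward, IFT-A with dynein-2 brings them back, and the BBSome, a coat-like complex, rides on the trains and takes membrane proteins such as G protein-coupled receptors out of the cilium. In the brain most neurons and astrocytes carry a single primary cilium with such receptors on it, whereas ependymal and choroid plexus cells carry many cilia, and loss of BBSome subunits causes Bardet-Biedl syndrome in humans.

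RNA was sequenced from frontal cortex, striatum and hippocampus of adult wild type (WT) mice and of *Pcm1*-/- (KO) littermates on the C57 Bl6J strain, with 3 libraries per genotype and region and 18 in all. PCM1 is a scaffold of centriolar satellites, the granules around the base of the cilium, and the KO mice carry a gene-trap insertion in all cells throughout life. The allele came from embryonic stem cells of line E14Tg2a.4 and was crossed back to C57BL/6J for at least 3 generations, so stretches of the genome near *Pcm1* may still be those of the stem cells. By the names of the deposited libraries, all 3 regions came from the same 6 animals, 3 of each genotype. The tissue was dissected whole, and in such bulk samples fewer cells of a type and less RNA per cell cannot be told apart.

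The libraries held 24950537 to 33405081 counts on genes. *Pcm1* itself measured 120 to 172 counts per 1e6 counts on genes after scaling by edgeR's TMM factors (CPM) in the 9 WT libraries and 11.8 to 17.6 CPM in the 9 KO libraries. Marker genes of each region were highest in the libraries of that region. In the striatum all WT libraries were sequenced in another lane than the KO libraries, and there the lane and the genotype cannot be told apart. A library of the WT striatum, replicate 3, stood apart in the summed level of 7 choroid plexus markers, at 6083 CPM against 33.6 to 171 CPM in the other 5 striatal libraries. In the hippocampus the same sum ran from 228 CPM in KO replicate 2 to 6358 CPM.

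Genes of the ciliary machinery often carry binding sites of RFX transcription factors, called X-boxes, near their start. The letters GTTGCC are 1 form of an arm of the X-box. They were searched on both strands of the RefSeq promoters of assembly GRCm38.p6, from 250 bases before to 50 bases after each gene start. Promoters were matched by symbol for 34 of the 39 genes. GTTGCC occurred in 13 of these 34 genes (38.2%), whereas it occurred in 3821 of all 27025 genes with a promoter (14.1%). Further lists of ciliary genes had such shares too. They were 42.9% of 14 other IFT, BBSome and motor genes, 58.8% of 17 genes of the transition zone at the base of the cilium and 28.6% of 7 ependymal markers. By complex, the letters were found in 2 of 5 IFT-A, 3 of 8 IFT-B core, 3 of 5 peripheral IFT-B, 3 of 6 BBSome, 1 of 3 kinesin-2 and 1 of 1 dynein-2 genes. They were found in 0 of 3 chaperonin-like genes, in 0 of 2 for *Tulp3* and *Inpp5e*, and not in *Arl6*. A whole X-box, a pattern of 14 bases whose arms need not read GTTGCC, was matched in *Ift57* and *Bbs1*, where it includes GTTGCC. These are 5.88% of the 34 genes, against 0.796% of all genes. In the further lists the share with a whole X-box was 0%, 29.4% and 14.3%, in the same order. A match describes the letters of the promoter only, and no binding was measured.

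Windows of 30 bases around GTTGCC are shown for the genes with these letters before the start, where promoter sites are usually sought, and for *Bbs1*, which holds a whole X-box. *Ift57* and *Ttc26* hold the letters a second time. Capitals mark GTTGCC, or the whole X-box in *Ift57* and *Bbs1*, and each window reads 5′ to 3′ on the strand that holds GTTGCC. The X-boxes of *Ift57* and *Bbs1* were both matched on the strand opposite to the window shown, as its complement. Coordinates are of GRCm38.p6.
Traf3ip1, chr1:91494581-91494610, plus strand: gcgcgtccGTTGCCaaggccgcgcggccct
Bbs7, chr3:36613489-36613518, minus strand: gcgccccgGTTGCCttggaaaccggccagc
Ttc26, chr6:38381483-38381512, plus strand: ccggcggcGTTGCCgtggaaacggagctcg
Kif3a, chr11:53567263-53567292, plus strand: ccgcaggcGTTGCCccagtctagcgtccat
Ift27, chr15:78174069-78174098, minus strand: tgatgatgGTTGCCaggagcctgtttggcg
Ift57, chr16:49699199-49699228, plus strand: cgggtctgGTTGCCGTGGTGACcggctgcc
Ift140, chr17:25015961-25015990, minus strand: ggcgcgagGTTGCCgtcacaacacgcccca
Bbs1, chr19:4906605-4906634, minus strand: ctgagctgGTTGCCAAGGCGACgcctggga
In 7 of the 13 genes the letters lay before the start. Counted from the start, they covered positions -79 to -74 in *Traf3ip1*, -121 to -116 in *Bbs7*, -33 to -28 in *Ttc26*, -98 to -93 in *Kif3a*, -9 to -4 in *Ift27*, -87 to -82 in *Ift57* and -109 to -104 in *Ift140*. Of the 8 windows shown, that of *Ift140* alone reads on the strand opposite to the gene. In *Bbs1* they covered positions 2 to 7, just after the start.

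The 39 genes were transcribed in every region, at levels that differed widely between the complexes. Their counts ran from 31 to 13258 in a library, and 36 of them had at least 100 counts in each of the 18 libraries. On the scale of CPM per kilobase of exon (RPKM), which allows levels of different genes to be compared, the highest in WT frontal cortex were *Kifap3*, the accessory subunit of kinesin-2, at 93.8 and the motor subunit *Kif3a* at 46.3. *Ift20*, which also acts at the Golgi in sorting cargo to the cilium, followed at 27.1 and *Kif3b*, the partner of *Kif3a*, at 18.5. The lowest was the chaperonin-like *Bbs12* at 0.767 RPKM. *Kifap3* exceeded 98.1% of all tested genes and *Bbs12* exceeded 28.1%.

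Within each complex the subunits were not at 1 level. IFT-A ran from 1.31 RPKM for *Ttc21b* to 6.88 RPKM for *Wdr35* in WT frontal cortex, and the IFT-B core from 2.14 RPKM for *Hspb11* and *Ttc26* to 10.1 RPKM for *Ift52*. Peripheral IFT-B ran from 1.94 RPKM for *Ift80* to the 27.1 RPKM of *Ift20*, with *Ift57* at 14.7 RPKM. BBSome subunits lay closer together, between 2.59 RPKM for *Bbs9* and 6.25 RPKM for *Bbs2*. Of the chaperonin-like genes, *Mkks* stood at 9.32 RPKM and *Bbs10* at 1.34 RPKM, and *Arl6* reached 11.4 RPKM. The dynein-2 heavy chain *Dync2h1* had 2.33 RPKM and its light intermediate chain *Dync2li1* 8.33 RPKM, while *Inpp5e* had 5.94 and *Tulp3* 1.49 RPKM. *Kifap3*, *Kif3a* and *Ift20* were the 3 highest and *Bbs12* the lowest of the 39 in WT striatum and WT hippocampus as well. These are levels per length of the union of exons, and some of them include stretches shared with another gene. Such stretches made up 24.6% of the exon length of *Cluap1* and 20.3% of that of *Inpp5e*, which overlaps *Pmpca* on the opposite strand, and the strand setting of the counting is not given in the sources used here.

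**Figure D1:**
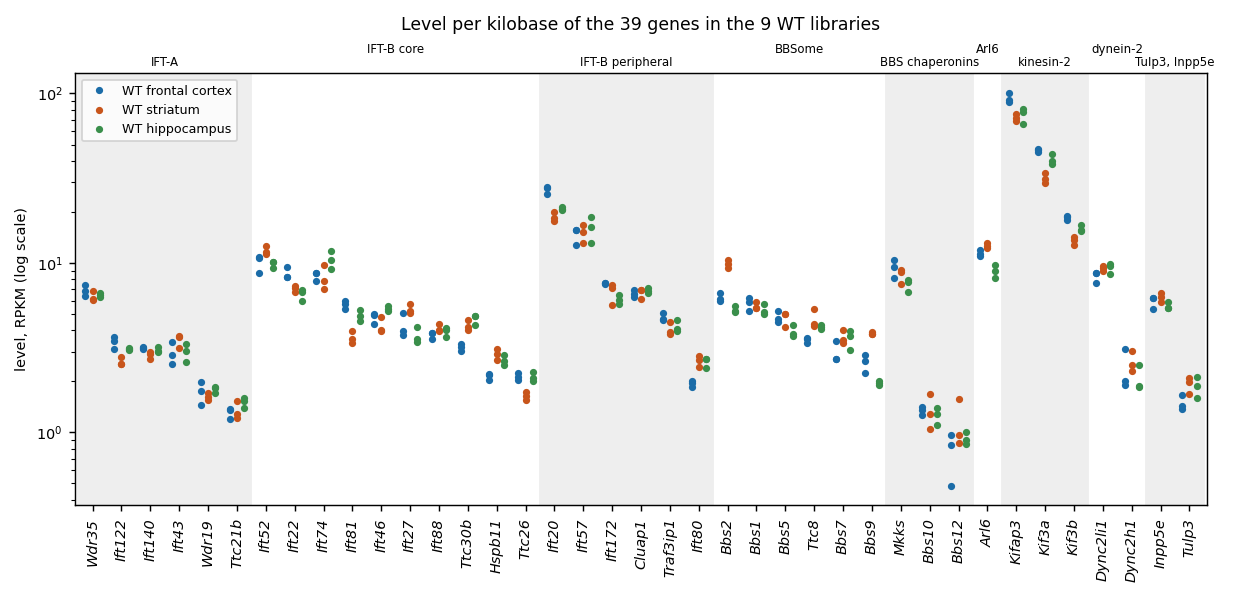
Levels of the 39 genes in RPKM (log axis), grouped by complex, with 1 point per WT library and 1 color per region. *Kifap3* and *Kif3a* lie at the top and *Bbs12* at the bottom in each region.

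Summed over the 39 genes, the level was 1419 to 1507 CPM in the 6 libraries of the frontal cortex, 1261 to 1302 CPM in those of the striatum and 1292 to 1386 CPM in those of the hippocampus. The 3 kinesin-2 genes contributed 622 to 690 CPM of this sum in the frontal cortex, 469 to 493 CPM in the striatum and 499 to 613 CPM in the hippocampus. Without them the sum was 785 to 829 CPM in the frontal cortex, 787 to 832 CPM in the striatum and 770 to 793 CPM in the hippocampus. The ranges of the regions thus overlapped once kinesin-2 was left out, while with kinesin-2 the frontal cortex lay above both other regions. Without TMM scaling the sum of all 39 was 1364 to 1466 per 1e6 counts in the frontal cortex and 1305 to 1417 in the hippocampus, which overlap, whereas kinesin-2 stayed apart at 598 to 674 against 504 to 586. Libraries of a group agreed closely. The coefficient of variation of a gene within a group had a median of 5.86% over the 39 genes, from 3.98% for *Bbs1* to 18.5% for the low *Bbs12*, and it was 16.9% for *Dync2h1*.

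The first comparison asks whether loss of PCM1 altered the transcript levels of the transport machinery. In none of the 3 regions did any of the 39 genes pass the test between KO and WT mice. The quasi-likelihood test of edgeR, adjusted after Benjamini and Hochberg over 17545 genes, called 0 of 39 at an adjusted p under 0.05 in the frontal cortex, where it called 1.74% of all genes. In the striatum and the hippocampus it also called 0 of 39, against 0.0285% and 0.0171% of all genes. With counts summed over the 3 regions of each animal, 0 of 39 were called against 1.39% of all genes. DESeq2 called 0 of 39 in each of these comparisons too.

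The measured differences were small. The median size of the log2 fold change over the 39 genes was 0.06 in frontal cortex, 0.06 in striatum and 0.08 in hippocampus. Over all tested genes it was 0.12, 0.13 and 0.15. The medians were not matched for level. All tested genes needed 10 counts in any 1 library, whereas 36 of the 39 had at least 100 in every library. A 95% interval of the difference that lay wholly within a 1.5-fold change in either direction was found for 37 of the 39 genes in the frontal cortex, all but *Bbs12* and *Dync2h1*. It was found for 38 in the striatum and 38 in the hippocampus, all but *Bbs12*, and for all 39 in the summed counts. Higher values in KO mice were seen for 16 genes in frontal cortex, 19 in striatum and 14 in hippocampus, and lower values for 23, 20 and 25. Of all tested genes, 48.1%, 49.1% and 49.8% were above 0.

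**Figure D2:**
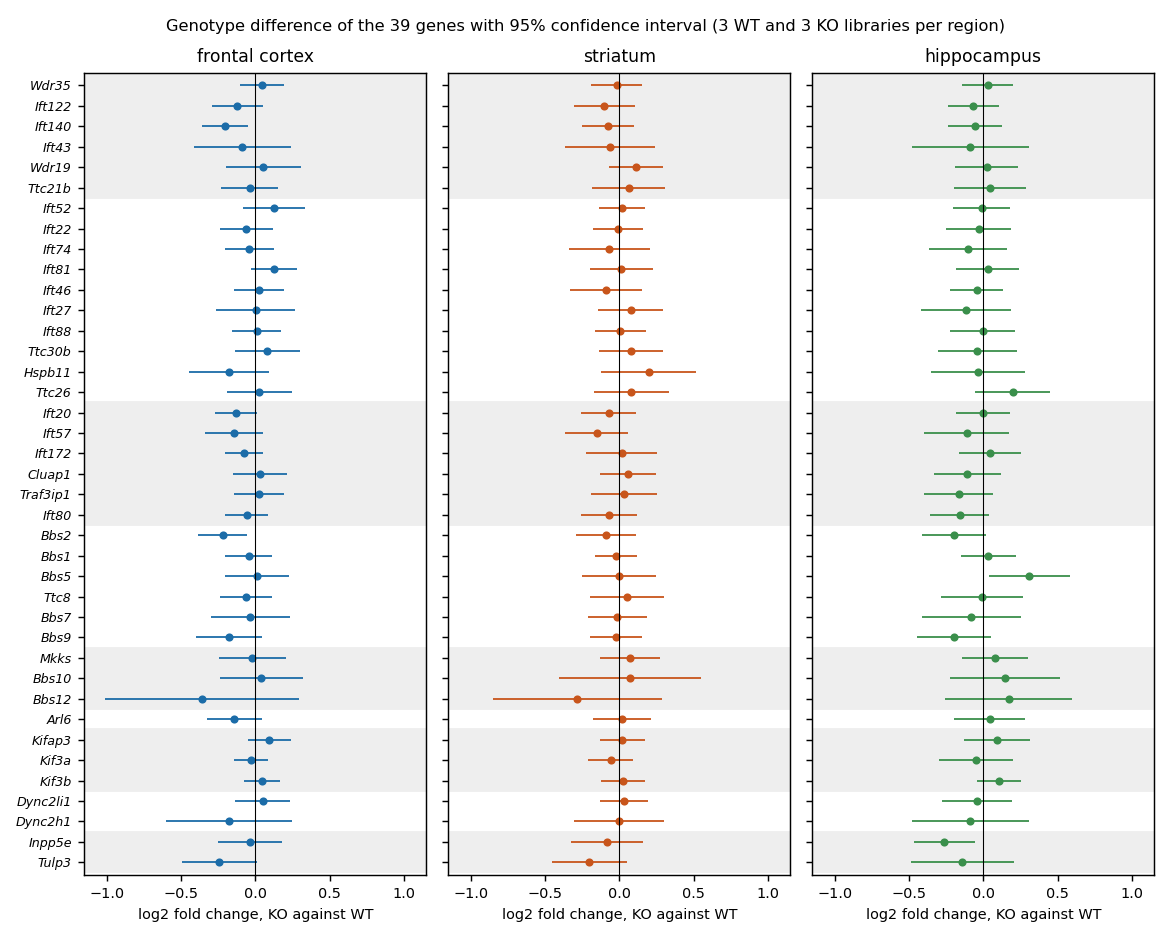
Log2 fold change of KO against WT for each of the 39 genes, with 1 panel per region and 95% intervals from edgeR's quasi-likelihood fit. None of the 39 was called, and the points of *Bbs2* lie below 0 in all 3 regions.

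In the BBSome, *Bbs2* (chr8:94067954-94098928 on GRCm38, minus strand), a subunit of the core on which the coat is built, had the lowest p in the frontal cortex. It measured 22.1, 19.6 and 20.3 CPM in WT and 17.9, 17.5 and 18.2 CPM in KO frontal cortex, so every KO library was below every WT library. The log2 fold change was -0.22 (95% interval -0.38 to -0.05) with an unadjusted edgeR p of 0.0146 and an adjusted p of 0.194. In the hippocampus *Bbs2* measured 18.4, 16.9 and 17.3 CPM in WT and 14.7, 16.1 and 15.7 CPM in KO libraries, again without overlap, at a log2 fold change of -0.20 (edgeR adjusted p = 0.535). In the striatum the values overlapped, with 30.8, 32.8 and 34.2 CPM in WT and 27.8, 33.7 and 30.3 CPM in KO libraries. Over the summed counts of the animals the log2 fold change of *Bbs2* was -0.17 (95% interval -0.32 to -0.01, edgeR adjusted p = 0.254). *Bbs2* lies on the same chromosome as *Pcm1*, and whether the stem-cell stretch near *Pcm1* reaches it was not tested.

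*Bbs9*, another subunit of that core, measured 12.6, 11.9 and 12.2 CPM in WT and 10.6, 10.1 and 11.6 CPM in KO hippocampus. The KO libraries were all lower, with a log2 fold change of -0.20 (edgeR adjusted p = 0.585). *Bbs5*, a subunit with lipid-binding domains, went the other way in the hippocampus, at 9.09, 10.5 and 9.34 CPM in WT and 12.1, 13.2 and 10.9 CPM in KO libraries. Its log2 fold change was 0.31 (95% interval 0.03 to 0.58) with an unadjusted edgeR p of 0.0317 and an adjusted p of 0.466. In the frontal cortex *Bbs5* overlapped between the genotypes, at 10.9, 11.4 and 12.6 CPM in WT and 11.3, 12.8 and 11.3 CPM in KO libraries. *Bbs1*, the subunit that binds ARL6, was nearly level, at log2 fold changes of -0.05 in frontal cortex, -0.02 in striatum and 0.03 in hippocampus.

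Among the IFT-A genes and their partners, *Ift140*, a subunit of the IFT-A core, measured 26.4, 26.5 and 25.7 CPM in WT and 22.9, 21.4 and 24.3 CPM in KO frontal cortex. The genotypes did not overlap, and the log2 fold change was -0.20 (95% interval -0.36 to -0.05) with an unadjusted edgeR p of 0.0161 and an adjusted p of 0.204. *Tulp3* measured 15.5, 13.4 and 12.9 CPM in WT and 10.5, 13.3 and 11.7 CPM in KO frontal cortex, with an overlap of the groups and a log2 fold change of -0.24 (edgeR adjusted p = 0.349). Its log2 fold change was -0.20 in the striatum (edgeR adjusted p = 0.464) and -0.20 over the summed counts (edgeR adjusted p = 0.245). The striatal value became -0.11 with lane as a covariate in 1 fit of all 18 libraries. Single libraries moved these values of *Tulp3*, as the frontal cortex value became -0.16 without WT replicate 1 or without KO replicate 1 and the summed value -0.11 without WT animal 1. *Inpp5e* measured 23.4, 25.4 and 23.3 CPM in WT and 19.0, 21.4 and 20.4 CPM in KO hippocampus. All KO libraries were below all WT libraries there, with a log2 fold change of -0.26 (95% interval -0.47 to -0.06), an unadjusted edgeR p of 0.0179 and an adjusted p of 0.433. In the frontal cortex *Inpp5e* overlapped, at 26.8, 26.9 and 23.0 CPM in WT and 25.7, 27.1 and 22.3 CPM in KO libraries.

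In the frontal cortex the log2 fold change was -0.13 for *Ift20* (edgeR adjusted p = 0.364) and 0.12 for *Ift81*, a tubulin-binding subunit of the core (edgeR adjusted p = 0.441), which was 0.08 without WT replicate 1. In the striatum it was -0.15 for *Ift57* (edgeR adjusted p = 0.509) and 0.20 for *Hspb11*, also known as *Ift25*, which forms a pair with *Ift27* (edgeR adjusted p = 0.579). The IFT-A gene *Wdr19* had a log2 fold change of 0.11 and *Bbs12* of -0.28 in the striatum (edgeR adjusted p = 0.576 and 0.664). With lane as a covariate in 1 fit of all 18 libraries, *Ift57* moved to -0.335 and *Wdr19* to 0.225, and *Bbs12* changed its sign. Single libraries decided some of these striatal values too. *Bbs12* turned to 0.03 without WT replicate 2, *Wdr19* moved to 0.06 without KO replicate 3, *Hspb11* moved to 0.30 without KO replicate 2, and *Ift57* moved to -0.24 without WT replicate 1 and to -0.07 without WT replicate 3. *Ift80* had -0.16 in the hippocampus and -0.11 over the summed counts (edgeR adjusted p = 0.581 and 0.276).

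Without adjustment, 2 of the 39 genes had an edgeR p under 0.05 in frontal cortex, 0 in striatum and 2 in hippocampus, against 15.3%, 13.5% and 9.89% of all genes. In the summed counts 4 genes had one (*Tulp3*, *Ift140*, *Bbs2* and *Ift80*), all lower, against 8.49% of all genes in that direction. Genotypes did not overlap for 3 genes in the frontal cortex (*Ift140*, *Hspb11* and *Bbs2*), all lower in KO mice, where 9.28% of all genes were lower without overlap. There were 0 such genes in the striatum, against 19% of all genes in either direction. In the hippocampus 4 were lower without overlap (*Traf3ip1*, *Bbs2*, *Bbs9* and *Inpp5e*), against 6.46% of all genes, and 3 were higher (*Ttc26*, *Bbs5* and *Kif3b*), against 10.6%. The effect of genotype was not called different between the regions for any of the 39 genes by edgeR's interaction test, which called 0.0114% of all genes and had its lowest p among the 39 for *Bbs5* (unadjusted p = 0.0699, adjusted p = 0.955).

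Cell type markers were followed beside these values. Of the 11 ependymal markers, 6 were higher in KO mice in frontal cortex, all 11 in striatum (median log2 fold change 0.27) and 4 in hippocampus, with 0 called. Their sum in the striatum was 34.8 to 83.9 CPM in WT and 58.3 to 83.5 CPM in KO libraries, so the genotypes overlapped. All 5 oligodendrocyte markers were lower in KO mice in each region, by a median of -0.20 in frontal cortex, -0.36 in striatum and -0.47 in hippocampus on the log2 scale. No oligodendrocyte marker was called in a region, and 1 of 5, *Mag*, was called lower over the summed counts at -0.46 (edgeR adjusted p = 0.0397). All 5 microglia markers were lower in each region as well, with 0 of 5 called. Astrocyte markers were lower for 2 of 5 in frontal cortex, 4 in striatum (lowest log2 fold change -1.11) and 3 in hippocampus, with 0 called. Endothelial markers were lower for 4, 4 and 5 of 5 and choroid plexus markers for 6, 7 and 7 of 7 in the 3 regions, with 0 called. The median of the choroid plexus markers was -3.44 in the striatum, where their sum was 53.9 and 56.9 CPM in the WT libraries other than replicate 3 and 33.6 to 171 CPM in the KO libraries. Neuron markers went both ways, higher for 3 of 5 in frontal cortex, 3 in striatum and 4 in hippocampus. Only *Syt1* was called, higher in KO frontal cortex at 0.29 (edgeR adjusted p = 0.0435). The part of these cell types in the values of the 39 genes was not tested.

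Other genes of the pathway were examined from lists that hold none of the 39. Of 16 further IFT, BBSome and motor genes, 15 were tested, and 0 of 15 were called between the genotypes in any region. Among them *Bbs4*, the BBSome subunit known to bind PCM1 at centriolar satellites, measured 51.5, 57.3 and 55.1 CPM in WT and 55.1, 57.1 and 56.1 CPM in KO frontal cortex. The log2 fold change of *Bbs4* was 0.03 in frontal cortex, 0.08 in striatum and 0.02 in hippocampus (edgeR adjusted p = 0.841, 0.620 and 0.948). Of 19 genes of the transition zone, the gate at the base of the cilium, only *Tmem17* was called, higher in KO frontal cortex with a log2 fold change of 0.59 (edgeR adjusted p = 0.0364). Its values were 0.25 in the striatum and 0.29 in the hippocampus (edgeR adjusted p = 0.428 and 0.558). Of 10 genes of ciliary membrane proteins and cargo, 0 were called in a region, and *Sstr3*, a somatostatin receptor of neuronal cilia, was called higher over the summed counts at 0.38 (edgeR adjusted p = 0.0362).

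The brain regions differed more than the genotypes. In WT mice 18 of the 39 genes differed between the striatum and the frontal cortex, 9 higher and 9 lower in the striatum, where edgeR's quasi-likelihood test called 48.3% of all genes. Between the hippocampus and the frontal cortex 14 differed, 4 higher and 10 lower in the hippocampus, against 37.7% of all genes. Between the striatum and the hippocampus 12 differed, 5 higher and 7 lower in the striatum, against 35.9%. These shares lie near those of all genes. The median size of the log2 fold change was lower over the 39 genes than over all genes, at 0.23 against 0.37, 0.20 against 0.29 and 0.16 against 0.28. All genes include those with low counts, and these medians were not matched for level. The 3 comparisons share libraries. With the animal as a block, since the same animals gave all regions, 20, 20 and 13 genes were called in WT mice, and 53.2%, 43.1% and 40.9% of all genes. The 20 between hippocampus and frontal cortex, 51.3% of the 39, included the 14 called without the block.

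In KO mice, which are other animals, every gene called in both genotypes had the same direction as in WT mice. Between striatum and frontal cortex 20 genes were called in KO mice against 51% of all genes, and 17 of these were called in the same direction in WT mice, 94.4% of the WT and 85% of the KO calls. Between striatum and hippocampus 15 were called in KO mice against 41.5% of all genes, and they included all 12 called in WT mice. Between hippocampus and frontal cortex 15 were called in KO mice against 37.8% of all genes, and 8 were shared, 57.1% of the WT and 53.3% of the KO calls. This KO count of 15 fell to 9 without KO frontal cortex replicate 1 or without KO hippocampus replicate 3, so the shares rest on those libraries. The sign was the same in both genotypes for 39, 31 and 34 of the 39 genes in these 3 comparisons. Of the 14 WT calls between hippocampus and frontal cortex, 13 kept their sign in KO mice, all but *Bbs5*.

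**Figure D3:**
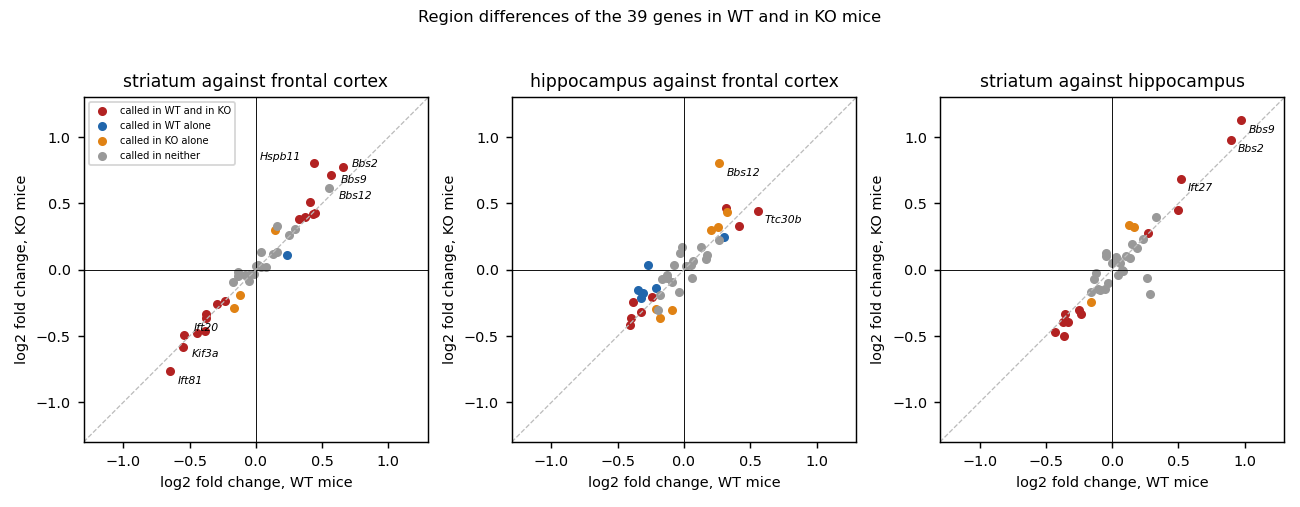
Log2 fold change between regions in WT mice (horizontal) and KO mice (vertical) for the 39 genes, with colors for the genotype in which a gene was called and a dashed line of equality. *Bbs2* and *Bbs9* lie farthest to the upper right in the comparison of striatum with hippocampus, and *Ift81* lies at the lower left in that of striatum with frontal cortex.

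All 3 kinesin-2 genes were lower in the striatum than in the frontal cortex. *Kif3a* (chr11:53567379-53601967) measured 162, 169 and 167 CPM in WT frontal cortex, 106, 113 and 121 CPM in WT striatum and 144, 158 and 137 CPM in WT hippocampus. The regions did not overlap, and the log2 fold change between striatum and frontal cortex was -0.55 (SE 0.0853, edgeR adjusted p = 4.6e-05). *Kif3b* (chr2:153291413-153333390) measured 105, 101 and 107 CPM in WT frontal cortex, 80.6, 77.1 and 71.6 CPM in WT striatum and 88.6, 93.9 and 87.2 CPM in WT hippocampus. It was called in all 3 region comparisons, with a log2 fold change of -0.45 between striatum and frontal cortex (edgeR adjusted p = 6.1e-06). *Kifap3* (chr1:163779583-163917109) measured 356, 369 and 405 CPM in WT frontal cortex, and all WT libraries of the other regions were lower, at 303, 286 and 277 CPM in the striatum and 266, 324 and 311 CPM in the hippocampus. Its log2 fold change was -0.38 between striatum and frontal cortex (edgeR adjusted p = 0.000628) and -0.33 between hippocampus and frontal cortex (edgeR adjusted p = 0.00325). The KO values between striatum and frontal cortex were -0.59 for *Kif3a*, -0.48 for *Kif3b* and -0.46 for *Kifap3*, all called.

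In the BBSome the subunits did not vary together across regions. *Bbs2* stood at 30.8 to 34.2 CPM in WT striatum, above the 19.6 to 22.1 CPM of WT frontal cortex and the 16.9 to 18.4 CPM of WT hippocampus, with no overlap between the regions. Its log2 fold change was 0.66 between striatum and frontal cortex (SE 0.0761, edgeR adjusted p = 2.0e-06) and 0.90 between striatum and hippocampus (SE 0.0767, edgeR adjusted p = 6.4e-08). *Bbs9* (chr9:22475715-22888280) measured 16.5, 14.04 and 17.96 CPM in WT frontal cortex, 23.8, 24.5 and 23.7 CPM in WT striatum and 12.6, 11.9 and 12.2 CPM in WT hippocampus, in the same order of regions and without overlap. The log2 fold change of *Bbs9* was 0.57 between striatum and frontal cortex (SE 0.0863, edgeR adjusted p = 3.8e-05) and 0.97 between striatum and hippocampus (SE 0.0875, edgeR adjusted p = 1.2e-07). In KO mice the values between striatum and hippocampus were 0.98 for *Bbs2* and 1.13 for *Bbs9*, both called.

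*Bbs1*, by contrast, was called in no region comparison in WT or KO mice. It measured 45.3, 40.0 and 47.6 CPM in WT frontal cortex, 41.6, 44.9 and 41.6 CPM in WT striatum and 43.9, 39.5 and 38.5 CPM in WT hippocampus, with overlapping ranges. The ratio of *Bbs9* to *Bbs1* CPM within a library, which needs no scaling between libraries, was 0.322 to 0.377 in the 6 libraries of the frontal cortex, 0.539 to 0.597 in the striatum and 0.233 to 0.317 in the hippocampus. The ratio of *Bbs2* to *Bbs1* was 0.405 to 0.491 in the frontal cortex, 0.656 to 0.822 in the striatum and 0.365 to 0.449 in the hippocampus. For both ratios the striatal libraries lay above all others. *Ttc8*, also known as *Bbs8*, was higher in the striatum than in the frontal cortex as well, with a log2 fold change of 0.41 (edgeR adjusted p = 0.00344). *Bbs5* was called lower in the hippocampus than in the frontal cortex at -0.28 in WT mice (edgeR adjusted p = 0.0479). In KO mice *Bbs5* was not called, with overlapping values of 12.1, 13.2 and 10.9 CPM in hippocampus and 11.3, 12.8 and 11.3 CPM in frontal cortex. *Bbs7* was called in none of the WT comparisons. *Arl6* followed the order of *Bbs2* between striatum and hippocampus, at 27.6, 25.8 and 26.3 CPM against 18.8, 17.1 and 20.5 CPM in WT libraries, with a log2 fold change of 0.50 (edgeR adjusted p = 0.000206).

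**Figure D4:**
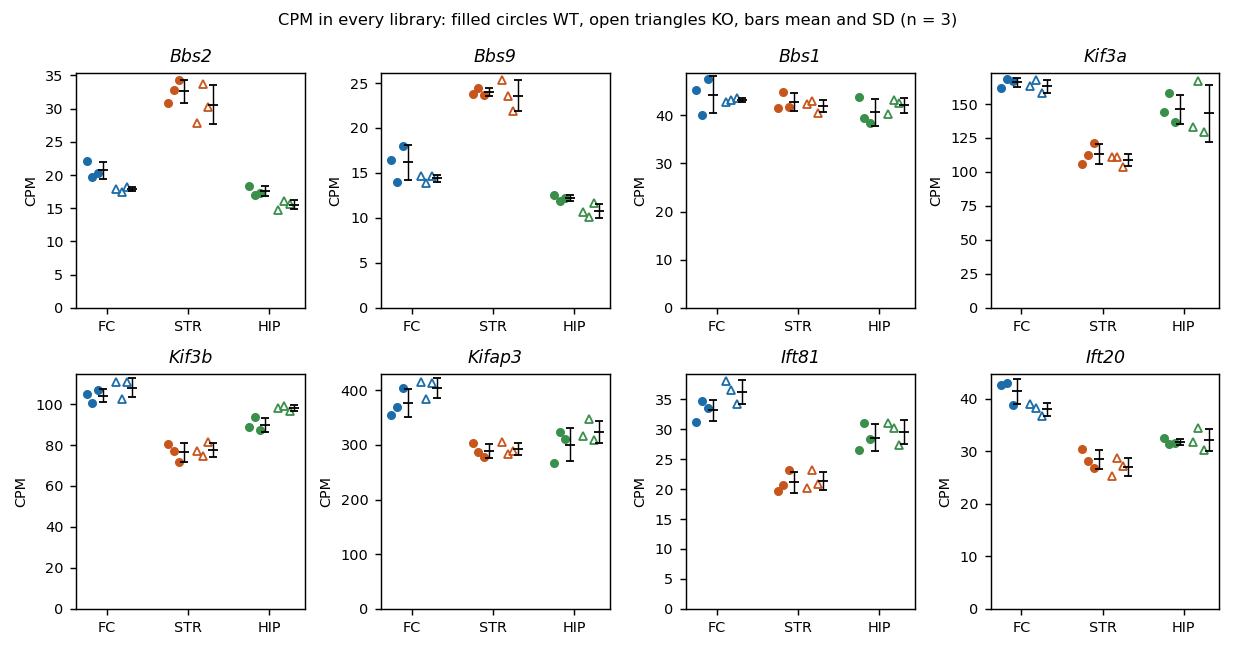
CPM of selected genes in each of the 18 libraries, by region and genotype. *Bbs2* and *Bbs9* are highest in the striatum in both genotypes, and *Kif3a* is highest in the frontal cortex in WT mice.

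In the IFT-B core and periphery genes moved in both directions. *Ift81* (chr5:122550204-122614518) measured 31.2, 34.7 and 33.5 CPM in WT frontal cortex, 19.7, 20.6 and 23.1 CPM in WT striatum and 26.5, 31.0 and 28.3 CPM in WT hippocampus. The striatal libraries were below all others, with a log2 fold change of -0.65 against the frontal cortex (SE 0.085, edgeR adjusted p = 7.8e-06) and of -0.43 against the hippocampus (edgeR adjusted p = 0.000602). *Ift74*, which pairs with *Ift81* in the complex, was called lower in the striatum than in the hippocampus at -0.35 (edgeR adjusted p = 0.0189) and higher in the hippocampus than in the frontal cortex at 0.30 (edgeR adjusted p = 0.0389). Both calls of *Ift74* were lost under some of the alternatives, and in KO mice the second was 0.25 and not called. *Ift20* (chr11:78536361-78541737) measured 42.5, 43.0 and 38.7 CPM in WT frontal cortex, above the 30.4, 28.1 and 26.8 CPM of WT striatum and the 32.4, 31.3 and 31.6 CPM of WT hippocampus. Its log2 fold change was -0.54 in the striatum and -0.38 in the hippocampus against the frontal cortex (edgeR adjusted p = 7.1e-06 and 0.000394).

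*Ift80*, *Ttc30b* and *Hspb11* were lowest in the frontal cortex. *Ift80* measured 25.1, 24.2 and 23.2 CPM there in WT mice, 30.3, 33.2 and 35.3 CPM in WT striatum and 33.6, 29.7 and 33.5 CPM in WT hippocampus, with log2 fold changes of 0.45 and 0.42 against the frontal cortex (edgeR adjusted p = 6.8e-05 and 0.000228). *Ttc30b*, which encodes an IFT70 subunit, measured 9.07, 8.79 and 8.22 CPM in WT frontal cortex, 11.0, 11.5 and 12.7 CPM in WT striatum and 13.3, 11.8 and 13.2 CPM in WT hippocampus. Its log2 fold changes were 0.43 and 0.56 (edgeR adjusted p = 0.00106 and 0.000186). Mice have close copies of this gene, *Ttc30a1* and *Ttc30a2*, and reads that fit several places were dropped, so the level of *Ttc30b* is uncertain. For both genes every frontal cortex library of WT mice lay below every library of the other regions. Against WT frontal cortex, *Hspb11* had log2 fold changes of 0.44 (striatum) and 0.31 (hippocampus) in WT mice (edgeR adjusted p = 0.00493 and 0.0439), the latter lost under 9 of 13 alternatives. In KO mice they were 0.80 and 0.47, both called.

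*Ift27*, a small GTPase-like subunit through which the BBSome is tied to IFT-B, measured 16.4, 14.5 and 14.9 CPM in WT striatum and 11.9, 9.78 and 10.2 CPM in WT hippocampus, without overlap. The log2 fold change between these regions was 0.52 (edgeR adjusted p = 0.00196) and 0.69 in KO mice. *Ift22*, another small GTPase-like subunit, was lower in the hippocampus than in the frontal cortex, at 21.5, 24.9 and 24.4 CPM against 29.9, 29.7 and 34.0 CPM in WT libraries, with a log2 fold change of -0.40 (edgeR adjusted p = 0.000682). Further calls between striatum and hippocampus were *Ttc26*, also known as *Ift56*, at -0.36, *Ift46* at -0.33 and *Ift52* at 0.27 (edgeR adjusted p = 0.00474, 0.00731 and 0.0127), the last lost under 2 of 13 alternatives. Between striatum and frontal cortex 1 of the 6 IFT-A genes, *Ift122*, was called in WT mice, where 48.3% of all genes were called, and it was lower in the striatum at -0.38 (edgeR adjusted p = 0.000582). In KO mice 2 of the 6 were called, *Ift122* at -0.37 and *Wdr35* at -0.19, against 51% of all genes.

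Of the 15 further IFT, BBSome and motor genes tested, 2 were called higher and 5 lower in WT striatum than in WT frontal cortex, where 48.3% of all genes were called. *Kif17*, a kinesin-2 motor made of a single kind of chain, was among the higher at 0.65, and *Kif3c*, a neuronal relative of *Kif3b*, among the lower at -0.53. Between hippocampus and frontal cortex 0 were called higher and 5 lower against 37.7% of all genes, with *Kif17* at -0.59. Between striatum and hippocampus 4 were called higher and 3 lower against 35.9% of all genes, with *Kif17* at 1.24 and the *Tulp3* relative *Tub* at -1.17.

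The makeup of the tissue differed between the regions too. The 5 oligodendrocyte markers summed to 1503 to 2182 CPM in the frontal cortex, 4815 to 7960 CPM in the striatum and 3162 to 7950 CPM in the hippocampus, and 5 of 5 were called higher in WT striatum and in WT hippocampus than in WT frontal cortex. The 5 neuron markers summed to 8100 to 9752 CPM, 4263 to 4488 CPM and 5489 to 7676 CPM in the same order. The 5 astrocyte markers summed to 1069 to 1427 CPM, 1182 to 1882 CPM and 1885 to 2437 CPM. Of these 5, 3 were called higher and 1 lower in WT hippocampus than in WT frontal cortex. Of 11 markers of ependymal cells, which carry many cilia, 9 were called higher in WT striatum and 10 in WT hippocampus than in WT frontal cortex, though their sum was only 10.6 to 15.7 CPM, 34.8 to 83.9 CPM and 35.4 to 94.2 CPM. The part of these cell types in the levels of the 39 genes was not tested. The calls of *Bbs2*, *Bbs9*, *Kif3a*, *Kif3b*, *Ift81* and *Ift20* between striatum and frontal cortex held without the WT striatum library that stood apart in choroid plexus markers.

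As the same animals gave all 3 regions, levels could also be compared between animals. Animals are numbered as the replicates of the frontal cortex and the hippocampus, and WT striatum replicates 1, 2 and 3 are WT animals 3, 1 and 2. The animals differ in sex, since genes of the Y chromosome had 2988 to 4306 counts in the libraries of animal 2 of each genotype and 0 to 5 in all others. *Dync2h1* and *Ift57* differed between animals of the same genotype in edgeR's quasi-likelihood test over all 18 libraries, a test chosen after the data had been seen, which called 2 of the 39 genes and 5.88% of all genes. *Dync2h1* (chr9:6928503-7184446) measured 50.6, 49.6 and 40.9 CPM in the 3 regions of WT animal 3, named in the order frontal cortex, striatum, hippocampus. It measured 31.0, 40.7 and 30.7 CPM in WT animal 1 and 32.9, 37.8 and 30.2 CPM in WT animal 2. In every region WT animal 3 was thus above the other WT animals. The edgeR test, which takes the animals of both genotypes together, gave an adjusted p of 0.00195 for *Dync2h1*. That p does not test WT animal 3 on its own.

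Of the KO animals, animal 2 was the lowest in *Dync2h1* in each region, at 27.9, 36.2 and 25.8 CPM, whereas KO animal 1 had 35.2, 48.8 and 34.7 CPM and KO animal 3 had 38.6, 43.0 and 36.4 CPM. *Ift57* (chr16:49699233-49765126) was lowest in WT animal 3 among the WT animals, at 36.6, 37.7 and 37.5 CPM in the same order of regions. WT animal 1 had 44.6, 43.8 and 53.7 CPM and WT animal 2 had 45.0, 47.9 and 46.8 CPM. For *Ift57* the edgeR test of the animals of both genotypes together gave an adjusted p of 0.042. The 3 KO animals lay between 36.1 and 44.7 CPM in *Ift57*, and 7.86% of the exon length of the gene is shared with another gene. With the WT animals alone 1 of the 39 genes was called against 2.33% of all genes, and with the KO animals alone 0 against 0.678%.

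**Figure D5:**
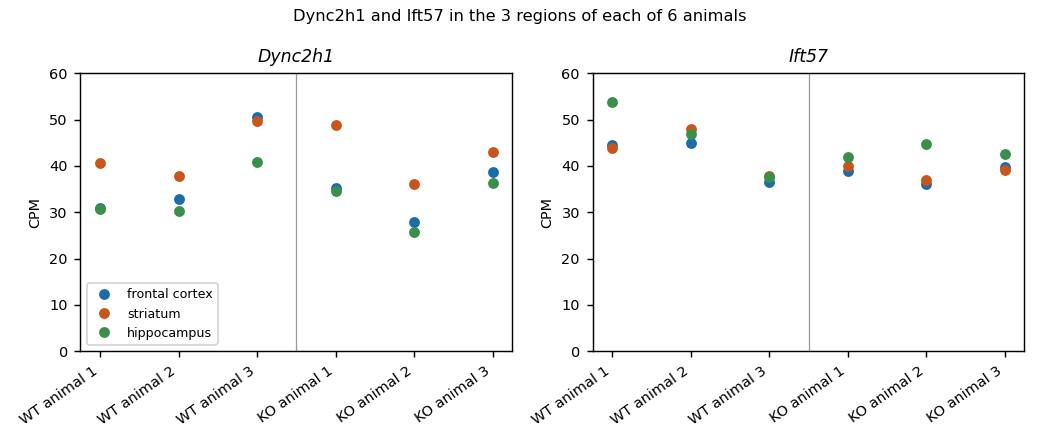
CPM of *Dync2h1* and *Ift57* in the 3 regions of each of the 6 animals, with 1 color per region. WT animal 3 is the highest WT animal in *Dync2h1* and the lowest in *Ift57* in every region.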

How the data were processed

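Per the labels and the paper's methods, stranded mRNA libraries were sequenced on an Illumina HiSeq, reads were trimmed with Trim Galore and cutadapt, and reads of at least 20 nt were aligned to GRCm38 (release 73) with STAR, of which those with a single position were kept. The submitters' processing notes name HTSeq, with no version. The authors deposited raw counts per Ensembl gene for each library, without normalization, and 86.8% to 89.2% of reads per library were assigned to a gene. Groups came from the sample titles and animals from the names of the deposited libraries. As each library of a group is from its own animal, the spread between libraries includes that between animals.

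From these counts, the 17545 genes that reached 10 counts in any library were tested with edgeR 4.0.16 (R 4.3.3), with TMM factors, the quasi-likelihood test, Benjamini-Hochberg adjustment and calls at an adjusted p under 0.05. KO was compared with WT in each region on its own and in counts summed per animal, and regions in 1 fit of 18 libraries. Levels used exon lengths of GENCODE M21. The members and lists were chosen with earlier results of these data known. Named were the 5 genes with the lowest p per genotype comparison, the 5 largest rises and falls among calls per WT region comparison, the extremes of each complex, and a few genes that complete a pair or complex, chosen after their values were seen. Alternatives were DESeq2 1.42.0, its size factors, other filters and thresholds, lane, blocks by replicate number or animal, and leaving out each library. Steps were tested on simulated data. Plots used Python 3.11.15 and matplotlib 3.10.9.

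Not every pair of same-numbered WT and KO libraries correlated above 0.1, so the numbers were not used as a block in the main fit.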

Additional observations from a re-analysis of the deposited data

How the results depend on the processing

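Between the genotypes, 0 of the 39 genes were called under every alternative run, leaving out each library included (0 to 0). Of the 20 genotype values with the lowest p, which alone were followed through the alternatives, 19 kept their sign. The exception was *Bbs12* in the striatum, at -0.28, which became 0.0222 when lane was a covariate and the 18 libraries were fitted together, where the lane effect comes from the other regions, and ran from -0.444 (without WT replicate 1) to 0.028 (without WT replicate 2) when single striatal libraries were left out. Its counts were the lowest of the 39, and the cause was not tested. The same lane fit moved the striatal values of *Ift57* to -0.335, of *Wdr19* to 0.225 and of *Tulp3* to -0.11.

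Same-numbered libraries of the genotypes correlated, after removal of group means, at r = 0.04, 0.26 and 0.20 for frontal cortex, 0.18, -0.16 and -0.27 for striatum and 0.10, 0.51 and 0.19 for hippocampus. In the WT striatum the replicate numbers do not follow the animals, so there the replicate block joins libraries of different animals. With WT striatum libraries numbered by animal, the striatal pairs correlated at 0.0635, 0.388 and 0.229, and animal 2 of each genotype is the one with Y chromosome counts. Under the replicate block, 0 of 39 genes were called in each genotype comparison, against 3.79% of all genes in frontal cortex, 0.0171% in striatum, 0.0513% in hippocampus and 0.16% in summed counts. The region comparisons called, with it, 18, 14 and 12 in WT and 20, 15 and 16 in KO mice, against 47.6%, 36.8% and 35.3%, and 50.4%, 36.6% and 40.6%, of all genes (striatum against frontal cortex, hippocampus against frontal cortex, striatum against hippocampus). Blocked by animal, they called 20, 20 and 13 in WT and 23, 18 and 16 in KO mice, against 53.2%, 43.1% and 40.9%, and 55.7%, 42.8% and 46.1%, of all genes.

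When a change of at least 1.5-fold was also required, these comparisons called 2, 0 and 2 genes in WT and 5, 1 and 3 in KO mice, against 27.8%, 20.3% and 20%, and 29.9%, 20.4% and 23.6%, of all genes. Leaving out single libraries gave 16 to 17, 11 to 13 and 11 to 13 calls in WT mice, and 16 to 20, 9 to 15 and 13 to 15 in KO mice. The 9 arose without KO frontal cortex replicate 1 or without KO hippocampus replicate 3. Of the WT regional values, the 29 that were among the 5 largest rises or falls of a comparison were followed. They kept their sign, and 25 were called under each alternative run for them. The exceptions were *Hspb11* (adjusted p 0.0385 to 0.142) and *Ift74* (0.0147 to 0.179) between hippocampus and frontal cortex, and *Ift74* (0.00134 to 0.112) and *Ift52* (0.00417 to 0.0611) between striatum and hippocampus. Other regional values, such as *Bbs5* between hippocampus and frontal cortex, were not followed. The test between animals called 2 of the 39 genes, and 1 with DESeq2's size factors, 1 in WT libraries alone and 0 in KO libraries alone. Leaving out libraries was not run for this test or for the interaction. Among the 39 genes, the 95% intervals of the genotype differences were widest for *Bbs12*.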
